A study of Homo sapiens with 17 samples.

Results

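The genes described here are 9 of the 19141 genes counted in YB5 cells. They were chosen by name because their products write, read or erase DNA methylation. No rule on measured values was used, but earlier results of these data were known. The writers are DNMT1, DNMT3A, DNMT3B and their partner UHRF1, the reader is MBD2 with its partner HDAC1, and the erasers are TET1, TET2 and TET3. All 9 genes had enough counts to be tested in every comparison.

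YB5 is a line made from SW48 colon cancer cells, with a single GFP reporter placed behind a methylated, silent CMV promoter, so that GFP marks the reactivation of a silenced gene. Toyocamycin, a nucleoside related to adenosine, was given at 250 nM and its solvent DMSO served as control, and polyA RNA was sequenced after 2, 10, 24, 48 and 72 h. The labels give 72 h for the last time point, where the paper names a later hour, and the time of the labels is used here. Counts of 17 libraries were analysed. For DMSO these were 3 libraries at 72 h, 2 at 2 h and 1 each at 10, 24 and 48 h. For toyocamycin they were 3 libraries at 72 h, 2 each at 2 and 10 h and 1 each at 24 and 48 h. Replicate 2 of both treatments at 2 h and at 10 h formed batch 2 of the labels, and the other 13 libraries formed batch 1. All libraries come from the same cell line with the same reporter, and no untreated cells without DMSO were analysed here. The libraries give mRNA levels, and neither protein nor DNA methylation was measured in them. In separate assays on this cell line, the paper found no effect of toyocamycin on methylation of the CMV promoter. The same held there for a repeat element used as a marker of global methylation, and for histone acetylation.

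DNA methylation in mammals sits mostly on the cytosine of CpG dinucleotides, and dense methylation of a promoter goes with silencing of its gene. UHRF1 recognises the half-methylated CpGs that replication leaves behind and brings in DNMT1, which copies the mark to the new strand, while DNMT3A and DNMT3B place methylation on sites without it. MBD2 binds methylated CpGs and belongs to the NuRD complex, in which HDAC1 removes acetyl groups from histones, and TET enzymes oxidise methylcytosine as the first step of its removal. In colon cancer, promoters of many genes gain methylation and are silent.

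The promoters of DNMT1, UHRF1 and TET3 are shown because the first pair are the maintenance genes and the third is the eraser with the largest rise. Each line runs from 100 bases before to 10 bases after the transcription start of the first RefSeq promoter of the gene, 5′ to 3′ on the strand of the gene in GRCh38. Capitals mark an E2F-type motif, spelled TTTCCCGC, TTTCGCGC, TTTGCCGC or TTTGGCGC and searched on both strands.

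DNMT1, chr19:10194944-10195053, minus strand: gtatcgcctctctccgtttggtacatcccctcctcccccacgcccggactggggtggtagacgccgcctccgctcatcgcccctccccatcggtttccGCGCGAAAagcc

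UHRF1, chr19:4909401-4909510, plus strand: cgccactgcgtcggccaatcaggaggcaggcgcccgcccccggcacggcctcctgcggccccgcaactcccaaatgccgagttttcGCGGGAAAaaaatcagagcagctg

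TET3, chr2:73984810-73984919, plus strand: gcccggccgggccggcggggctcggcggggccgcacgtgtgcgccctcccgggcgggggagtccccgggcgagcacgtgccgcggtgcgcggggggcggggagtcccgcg

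In windows of 250 bases before to 50 bases after the start, 1 of 1 DNMT1 promoters and 2 of 3 UHRF1 promoters held the motif, against 3.31% of all 35116 RefSeq promoters of the same length. None of the 6 DNMT3A, 1 DNMT3B, 3 TET1, 2 TET2, 2 TET3, 1 MBD2 and 1 HDAC1 promoters held these letters. The match in DNMT1 lies at the RefSeq start itself, from base -2 to base 6. The match in the first UHRF1 promoter lies just before its RefSeq start, from base -14 to base -7. The same 300 bases held 30 CpGs in DNMT1, 36 in the first UHRF1 promoter, 45 in the first TET3 promoter, 28 in HDAC1 and 32 in MBD2. The first DNMT3A, TET1 and TET2 promoters held 26, 10 and 13, and the median over all promoters was 14. The only DNMT3B window, with 3 CpGs, covered chr20:32779602-32779901, inside the annotated gene. The start of that gene, at chr20:32762385, was not searched, so CpGs and motif there are not known. The DNMT1 and UHRF1 windows also lie inside the annotated genes. Their outermost annotated starts, at chr19:10231286 and chr19:4903080, were not searched either. A match of letters is a description of the sequence and was not set against any binding data.

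The 9 genes are 41.6 to 134 kb long in the GENCODE annotation of GRCh38. DNMT1 lies at chr19:10133342-10231286, UHRF1 at chr19:4903080-4962154, DNMT3A at chr2:25227855-25342590 and DNMT3B at chr20:32762385-32809359. MBD2 lies at chr18:54151606-54224669, HDAC1 at chr1:32292083-32333635, TET1 at chr10:68560337-68694487, TET2 at chr4:105145875-105279816 and TET3 at chr2:73984910-74108176. Within DNMT1 the annotation places S1PR2 on the same strand, which was also counted, so reads of a shared stretch cannot be assigned with certainty. The other 8 genes overlap no second gene of the count table. TET2 and TET3 overlap transcripts on the opposite strand that are not in the table, and whether the counting used strand is not given in the sources used here.

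Gene counts summed to 8735465 in the shallowest library and 22121364 in the deepest. CPM values below are counts set to a common library total and scaled with TMM, a trimmed mean that takes most genes as unchanged. Replicate 2 of toyocamycin at 10 h stood apart from all others, with the lowest total, 18654 genes detected against 13434 to 16549 in the other libraries, and 6.55% of its reads on mitochondrially encoded genes. Results at 10 h are therefore also given without it. Of the colon epithelial markers, EPCAM, CDH1, KRT8, KRT18 and CDX2 were expressed in DMSO, while CDX1 had 0 counts there, KRT20 and LGALS4 did not pass 0.210 CPM and VIL1 did not pass 2.26 CPM. The summed level of 10 markers of other cell types lay between 0.674 and 11.3 CPM in DMSO libraries.

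Compared per kb of canonical mRNA, the 9 genes fell into 4 levels that did not overlap in the 8 DMSO libraries. HDAC1 was at 85.7 ± 6.64 CPM per kb (SD, n = 8), UHRF1 at 72.9 ± 14.4 and DNMT1 at 68.4 ± 9.95. These genes had overlapping ranges, and their order changed with the length used, since per kb of all annotated exons UHRF1 came first at 55.2 and DNMT1 last at 23.5 CPM per kb. MBD2 at 7.92 ± 0.894 and DNMT3A at 6.42 ± 0.813 CPM per kb overlapped each other and lay below. DNMT3B at 3.51 ± 0.353, TET3 at 3.05 ± 0.971 and TET2 at 2.04 ± 0.699 CPM per kb formed a chain of overlapping ranges. The grouping holds for canonical mRNA only. Per kb of all annotated exons, DNMT1 lay below UHRF1 and HDAC1, and MBD2 above DNMT3A, with no overlap. There DNMT3A (3.53 to 5.01 CPM per kb) overlapped TET3 (1.77 to 4.05). TET1 was lowest at 0.147 ± 0.0553 CPM per kb, apart from all the others, and had 10 to 55 counts per library in both arms. After 72 h on toyocamycin, TET3 stood at 7.26 ± 0.799 CPM per kb (SD, n = 3), beside HDAC1 at 7.14 ± 0.723, UHRF1 at 5.42 ± 1.38 and DNMT1 at 4.41 ± 0.786. DNMT1, far above TET3 in DMSO, was below it in all 3 libraries, and UHRF1 and HDAC1 overlapped it. Per kb of all annotated exons TET3, at 6.77 ± 0.744, lay above HDAC1 at 3.81 ± 0.386 and UHRF1 at 4.11 ± 1.04 with no overlap.

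**Figure D1:**
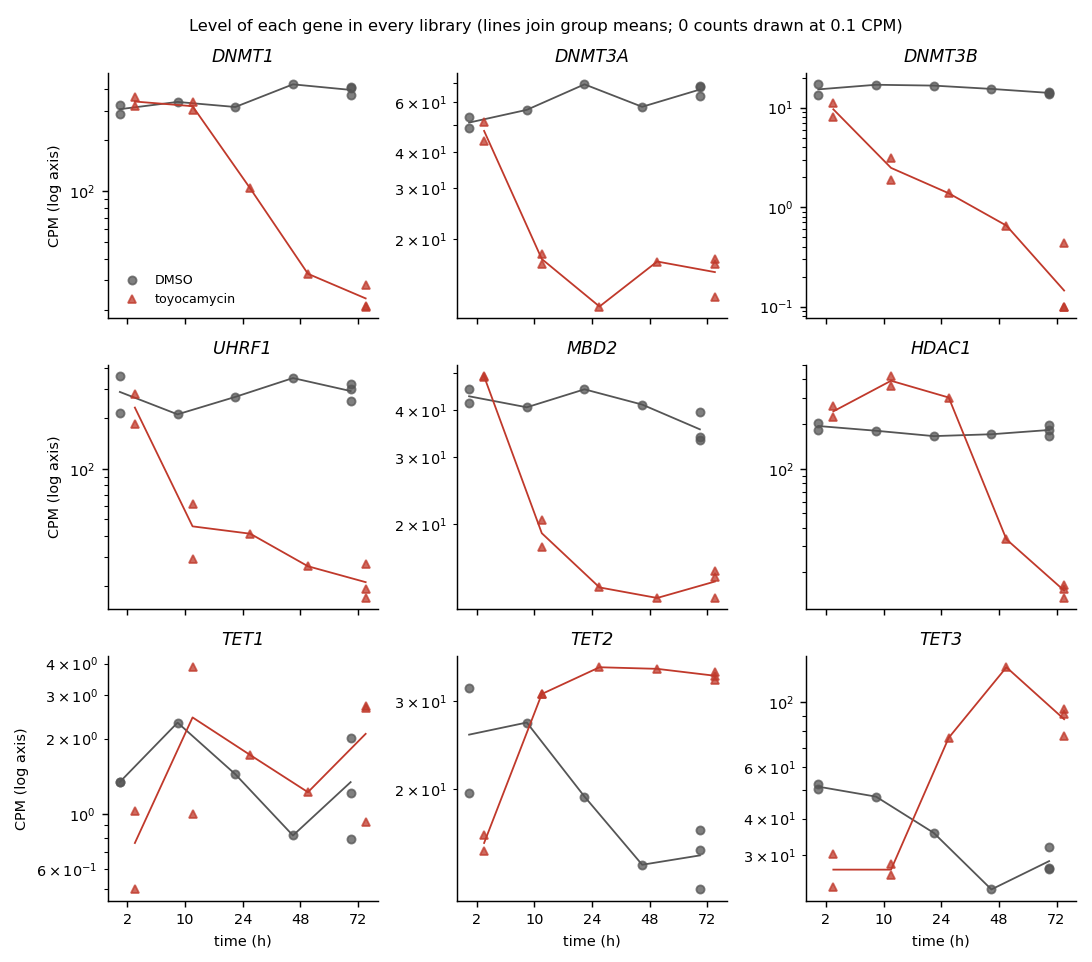
Level of each of the 9 genes in every library, in CPM on a log axis, against time in hours, with the times evenly spaced. Grey circles are DMSO, red triangles are 250 nM toyocamycin, lines join the means of each group, and libraries with 0 counts of DNMT3B are drawn at 0.1 CPM. The 3 toyocamycin libraries at 72 h lie below all 3 DMSO libraries for 6 genes, above them for TET2 and TET3, and overlap them for TET1. The share of all genes without overlap was not counted, and 41.9% of genes were called lower and 47.0% higher at 72 h.

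Toyocamycin lowered few of these genes at first and most of them later. At 2 h, TET2 and TET3 were downregulated and 0 of the 9 genes were upregulated (edgeR's quasi-likelihood test, Benjamini-Hochberg adjusted p under 0.1). Among all 14491 genes tested, 8.42% were called lower and 0.518% higher. Without adjustment for multiple tests, at 0.05, the same test gave 3 lower (DNMT3B in addition) and 0 higher. DESeq2's Wald test, at an adjusted p under 0.1, also gave 0 higher. Replicate numbers at 2 h mark the batch, and with replicate as a block the same test called 4 members lower and 1 higher, where 18.7% and 8.72% of 11848 genes were called. The members added by the block were DNMT3B and UHRF1 among the lower and HDAC1 among the higher.

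At 10 h, DNMT3A, DNMT3B, UHRF1, MBD2 and TET3 were downregulated and HDAC1 was upregulated. That is 5 lower and 1 higher of 9, where 24.4% of 16521 genes were called lower and 20.4% higher. Without replicate 2 of toyocamycin, 1 library was left in each arm, the treated one from batch 1 and the DMSO one from batch 2. Treatment and batch cannot be told apart in that fit. The log2 fold changes of these 6 genes kept their signs with either treated library left out. The 10 h DMSO library belongs to batch 2, and with batch as a term in the fit all 6 of these calls stood.

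At 24 and 48 h each arm had 1 library, so genes are described by a 2-fold difference, with no test. At 24 h, DNMT1, DNMT3A, DNMT3B, UHRF1 and MBD2 were more than 2-fold lower, beside 27.8% of all genes, and TET3 was more than 2-fold higher, beside 29.7%. At 48 h, HDAC1 joined the 5 lower genes, where 29.9% of genes were past 2-fold lower, and TET2 and TET3 were past 2-fold higher, beside 38.1%.

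At 72 h, 6 of the 9 genes were downregulated (DNMT1, DNMT3A, DNMT3B, UHRF1, MBD2 and HDAC1) and TET2 and TET3 were upregulated. TET1 did not pass the test. Since 41.9% of all genes were called lower and 47.0% higher at this time, a call alone sets no gene apart, and the sizes below carry more. The median log2 fold change was -2.08 over the 9 genes and 0.18 over all genes tested. Bulk counts are shares of a library, so fewer cells that express a gene and less RNA per cell cannot be told apart.

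**Figure D2:**
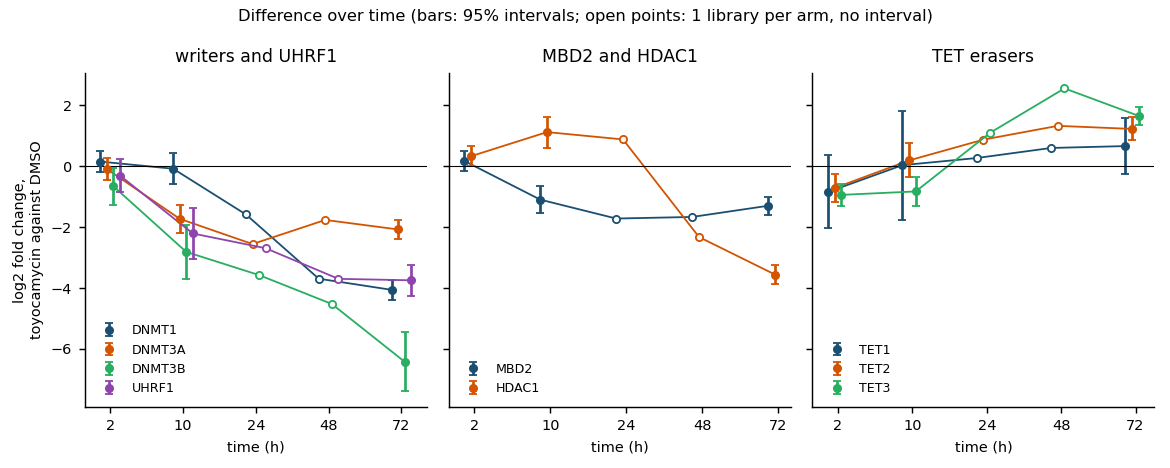
Log2 fold change of toyocamycin against DMSO for each gene over time in hours, evenly spaced, with 95% confidence intervals at 2, 10 and 72 h and open points without intervals at 24 and 48 h, where each arm had 1 library. Writers and UHRF1 fell from 10 or 24 h on, HDAC1 was positive until 24 h and at -3.56 at 72 h, and TET3 went from -0.94 at 2 h to 1.65 at 72 h.

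DNMT1, the maintenance methyltransferase, did not pass the test until 72 h. Its DMSO libraries had 326 and 286 CPM at 2 h, 338 at 10 h, then 315 at 24 h and 429 at 48 h, and 413, 410 and 370 CPM at 72 h. On toyocamycin it had 359 and 320 CPM at 2 h, 335 and 302 at 10 h, then 104 at 24 h and 32.5 at 48 h, and 20.9, 20.8 and 28.1 CPM at 72 h. The arms overlapped at 2 h, lay close together at 10 h with both treated libraries just below the DMSO library, and were far apart from 24 h on. In log2 fold change the difference was 0.15 ± 0.17 (SE) at 2 h (adjusted p = 0.721) and -0.08 ± 0.24 at 10 h (adjusted p = 0.779), and at 10 h its 95% interval ran from -0.59 to 0.42. It was -1.59 at 24 h and -3.69 at 48 h, without a test, and -4.06 ± 0.16 at 72 h (adjusted p = 3.46e-12). The value at 10 h depended on the scaling, and was -0.54 with library size alone (adjusted p = 0.0668) and -1.21 on the mitochondrially encoded genes (adjusted p = 0.191). At 72 h DNMT1 stood 16.7-fold lower.

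UHRF1, which guides DNMT1 to newly replicated DNA, was already lower at 10 h. Its DMSO libraries had 358 and 216 CPM at 2 h, 211 at 10 h, then 268 at 24 h and 347 at 48 h, and 319, 298 and 255 CPM at 72 h. The toyocamycin libraries had 280 and 184 CPM at 2 h, 61.9 and 29.0 at 10 h, then 41.1 at 24 h and 26.3 at 48 h, and 17.004, 19.2 and 27.2 CPM at 72 h. Both arms were lower in batch 2 than in batch 1 at 2 h. At 2 h the log2 fold change was -0.31 ± 0.25 (adjusted p = 0.64), and with the replicate block it was -0.31 with an adjusted p of 0.0311. It was -2.21 ± 0.39 at 10 h (adjusted p = 0.000406), and -1.76 without replicate 2 of toyocamycin, where the arms came from different batches. At 72 h it reached -3.75 ± 0.24 (adjusted p = 6.61e-10). The earlier fall of UHRF1 also shows in the ratio of the counts of both genes within a library.

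In DMSO libraries the ratio of DNMT1 to UHRF1 counts lay between 0.909 and 1.598. It was 1.29 and 1.74 in the 2 h toyocamycin libraries, each above the DMSO library of its batch (0.909 and 1.32), then 5.41 and 10.4 at 10 h, 2.53 at 24 h, and between 1.03 and 1.24 at 48 and 72 h. Such a ratio does not depend on how libraries are scaled. The pair was furthest apart at 10 h, with both treated libraries above every DMSO library, and stood near its DMSO ratio again at 48 and 72 h, when both genes were low.

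DNMT3A and DNMT3B, the de novo methyltransferases, both fell between 2 and 10 h. DNMT3A had 53.0 and 48.7 CPM in DMSO at 2 h, 56.3 at 10 h, then 69.1 at 24 h and 57.7 at 48 h, and 67.9, 67.8 and 63.1 CPM at 72 h. On toyocamycin it had 51.3 and 43.8 CPM at 2 h, 16.3 and 17.7 at 10 h, then 11.6 at 24 h and 16.7 at 48 h, and 12.6, 17.05 and 16.3 CPM at 72 h. The treated libraries from 10 to 72 h shared the narrow range of 11.6 to 17.7 CPM, below every DMSO library. Its log2 fold change was -0.10 ± 0.17 at 2 h (adjusted p = 0.845), -1.73 ± 0.22 at 10 h (adjusted p = 2.1e-05), -2.56 at 24 h, -1.77 at 48 h and -2.08 ± 0.15 at 72 h (adjusted p = 2.3e-09).

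DNMT3B went on falling until it was barely detected. It had 17.1 and 13.4 CPM in DMSO at 2 h, 16.96 at 10 h, then 16.6 at 24 h and 15.4 at 48 h, and 14.3, 13.7 and 14.1 CPM at 72 h. The toyocamycin libraries had 11.1 and 8.07 CPM at 2 h, 1.86 and 3.09 at 10 h, 1.38 at 24 h and 0.651 at 48 h. At 72 h they held 0, 0 and 5 counts, against 289, 295 and 329 counts in DMSO. A count of 0 allows levels of up to 0.295 and 0.278 CPM in the first and second of these libraries, a limit that covers counting error only. Treated libraries lay below the DMSO libraries at every time, 2 h included. The log2 fold change was -0.66 ± 0.29 at 2 h (adjusted p = 0.272), where the replicate block gave -0.68 with an adjusted p of 0.00039, and both batches showed it, with -0.62 in batch 1 and -0.73 in batch 2. It was -2.82 ± 0.42 at 10 h (adjusted p = 9.76e-05), -3.58 at 24 h, -4.53 at 48 h and -6.42 ± 0.46 at 72 h (adjusted p = 2.49e-09). The value at 72 h rests on the 5 counts of replicate 3, and without that library the treated group has 0 counts and a fitted fold change has no meaning.

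MBD2, which reads methylated CpGs for the NuRD complex, followed the timing of UHRF1 and DNMT3A with a smaller change. It had 41.6 and 45.3 CPM in DMSO at 2 h, 40.6 at 10 h, then 45.3 at 24 h and 41.3 at 48 h, and 39.4, 33.9 and 33.3 CPM at 72 h. On toyocamycin it had 49.2 and 48.8 CPM at 2 h, 20.5 and 17.4 at 10 h, then 13.6 at 24 h and 12.8 at 48 h, and 15.0, 12.8 and 14.5 CPM at 72 h. Treated libraries were above both DMSO libraries at 2 h and below all DMSO libraries from 10 h on. The log2 fold change was 0.17 ± 0.16 at 2 h (adjusted p = 0.671), -1.10 ± 0.21 at 10 h (adjusted p = 0.000761), -1.72 at 24 h, -1.67 at 48 h and -1.30 ± 0.14 at 72 h (adjusted p = 2.86e-07).

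HDAC1, a histone deacetylase of the NuRD and SIN3 complexes, rose before it fell. In DMSO it had 184 and 204 CPM at 2 h, 180 at 10 h, then 166 at 24 h and 171 at 48 h, and 167, 182 and 198 CPM at 72 h. On toyocamycin it had 223 and 264 CPM at 2 h, 423 and 360 at 10 h, then 302 at 24 h and 33.4 at 48 h, and 13.5, 16.5 and 15.4 CPM at 72 h. The treated libraries lay above every DMSO library up to 24 h and below every one of them from 48 h on. The log2 fold change was 0.33 ± 0.16 at 2 h (adjusted p = 0.341), where the replicate block gave 0.31 with an adjusted p of 0.0236, and 1.12 ± 0.24 at 10 h (adjusted p = 0.00187). The difference was 0.88 after 24 h and -2.33 after 48 h, and it was -3.56 ± 0.15 at 72 h (adjusted p = 6.17e-12). With libraries scaled on the mitochondrially encoded genes the rise at 10 h was not there, at 0.00 with an adjusted p of 1, and the value at 24 h was -1.39. Against DNMT1 in the same library, HDAC1 counts had a ratio of 0.398 to 0.715 in DMSO, 1.19 and 1.26 in the 10 h toyocamycin libraries, 2.90 at 24 h, 1.03 at 48 h and 0.548 to 0.791 at 72 h.

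**Figure D3:**
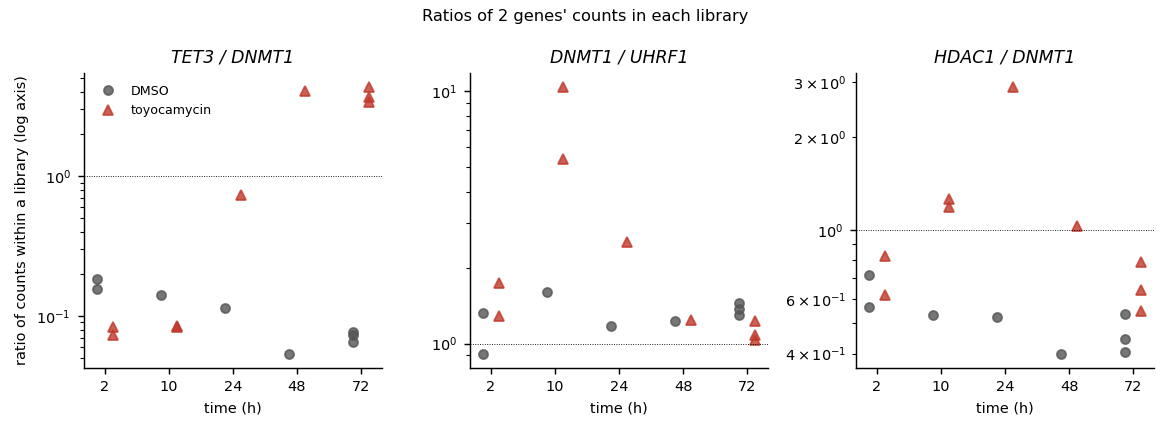
Ratio of the counts of 2 genes within each library, on a log axis, against evenly spaced times in hours, for TET3 over DNMT1, DNMT1 over UHRF1 and HDAC1 over DNMT1. Grey circles are DMSO and red triangles are toyocamycin, and the dotted line marks equal counts. TET3 over DNMT1 was at most 0.183 in the DMSO libraries and at least 3.38 in the treated libraries at 48 and 72 h.

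TET3 and TET2, enzymes that oxidise methylcytosine, were lower at 2 h and higher late. TET3 had 50.5 and 52.4 CPM in DMSO at 2 h, 47.5 at 10 h, then 35.7 at 24 h and 22.9 at 48 h, and 31.9, 26.8 and 27.1 CPM at 72 h. On toyocamycin it had 30.2 and 23.3 CPM at 2 h, 27.9 and 25.5 at 10 h, then 75.7 at 24 h and 132 at 48 h, and 76.7, 91.2 and 94.9 CPM at 72 h. The arms did not overlap at any time, with treated libraries below at 2 and 10 h and above from 24 h on. Its log2 fold change was -0.94 ± 0.17 at 2 h (adjusted p = 0.00278), with -0.74 in batch 1 and -1.17 in batch 2, and on the mitochondrial scale neither TET3 (adjusted p = 0.929) nor TET2 (adjusted p = 1) passed at 2 h. The log2 fold change of TET3 was -0.83 ± 0.22 at 10 h (adjusted p = 0.00894). Without replicate 2 of toyocamycin, where the arms came from different batches, it was -0.76. The values at 24 and 48 h were 1.10 and 2.55, and at 72 h TET3 reached 1.65 ± 0.14 (adjusted p = 2.68e-08).

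TET2 had 19.6 and 31.8 CPM in DMSO at 2 h, 27.2 at 10 h, then 19.4 at 24 h and 14.1 at 48 h, and 15.1, 12.6 and 16.6 CPM at 72 h. The toyocamycin libraries had 15.1 and 16.2 CPM at 2 h, 31.0 and 31.1 at 10 h, then 35.1 at 24 h and 34.8 at 48 h, and 33.7, 34.4 and 33.1 CPM at 72 h. From 10 h on all treated libraries stood within 31.0 to 35.1 CPM while the DMSO level fell, and both arms move the difference at 72 h. The log2 fold change was -0.72 ± 0.21 at 2 h (adjusted p = 0.0584), with -0.38 in batch 1 and -0.97 in batch 2, and the call was lost without replicate 2 of DMSO (-0.33, adjusted p = 0.496) and without either toyocamycin library (-0.66, adjusted p = 0.247 and -0.76, adjusted p = 0.162). It was 0.19 ± 0.26 at 10 h (adjusted p = 0.558), 0.87 at 24 h, 1.32 at 48 h and 1.22 ± 0.18 at 72 h (adjusted p = 9.9e-06).

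TET1, the third enzyme of the family, was too low for its changes to be resolved at this depth. Its DMSO libraries had 1.35 and 1.34 CPM at 2 h, 2.32 at 10 h, then 1.44 at 24 h and 0.818 at 48 h, and 0.793, 1.21 and 2.02 CPM at 72 h. The toyocamycin libraries had 0.497 and 1.03 CPM at 2 h, 0.999 and 3.87 at 10 h, then 1.72 at 24 h and 1.22 at 48 h, and 2.65, 0.927 and 2.69 CPM at 72 h. Treated libraries lay below both DMSO libraries at 2 h and overlapped them at 10 and 72 h. The higher of the 10 h values came from replicate 2, the library that stood apart. On the log2 scale the difference was -0.85 ± 0.56 at 2 h (adjusted p = 0.552) and 0.66 ± 0.44 at 72 h (adjusted p = 0.168), where its 95% interval ran from -0.27 to 1.59. DESeq2's size factors raised the value at 72 h to 0.98 (adjusted p = 0.047), and scaling on the mitochondrially encoded genes turned it to -0.26 (adjusted p = 0.683). Leaving out replicate 3 of DMSO or replicate 2 of toyocamycin gave 1.08 (adjusted p = 0.0459) and 1.02 (adjusted p = 0.0397).

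The counts of TET3 and DNMT1 changed places. The ratio of TET3 to DNMT1 counts lay between 0.0533 and 0.183 in the 8 DMSO libraries. On toyocamycin it was 0.0840 and 0.0729 at 2 h, 0.0833 and 0.0845 at 10 h, then 0.728 at 24 h and 4.05 at 48 h, and 3.66, 4.37 and 3.38 at 72 h. At 2 h both treated libraries lay below both DMSO libraries of the same time, and from 24 h on treated libraries lay above all DMSO libraries. The ratio of TET3 to TET2 was 0.901 and 0.822 in the 10 h toyocamycin libraries and 1.62 to 2.57 in DMSO. TET2 had thus reached its later treated level at 10 h, and TET3 had not.

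The effect of toyocamycin at 72 h was tested against its effect at 2 h in the same fit. The difference was called in all 9 genes, lower in 6 and higher in the 3 TET genes, where 38.1% of all genes were called lower and 38.0% higher. It was largest for DNMT3B at -5.76 ± 0.60 and smallest for MBD2 at -1.47 ± 0.21 among the lower genes. For TET3 it was 2.59 ± 0.22 (adjusted p = 5.71e-08) and for TET2 1.94 ± 0.28 (adjusted p = 1.38e-05). TET1 passed with 1.51 ± 0.71 (adjusted p = 0.0695), with a 95% interval from -0.01 to 3.02, and lost the call in 7 of the 10 fits without a library. In the fit of all 17 libraries TET1 lost its call (1.46, adjusted p = 0.199), and with batch as a term there it kept it at an adjusted p of 0.098, as did the other 8 genes. On the mitochondrial scale TET2 (0.87, adjusted p = 0.285) and TET1 (0.76, adjusted p = 0.506) lost their calls, and with library size alone TET1 did (0.97, adjusted p = 0.237).

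DMSO libraries were also compared over time. Between 2 and 72 h in DMSO, TET2 fell by 0.80 ± 0.19 (adjusted p = 0.0114) and TET3 fell by 0.85 ± 0.15 (adjusted p = 0.00181) on the log2 scale. These are 2 lower and 0 higher of 9, where 11.4% of all genes were called lower and 10.2% higher. Without adjustment, at 0.05, DNMT1 and DNMT3A were higher too, both by 0.38, and DESeq2 called both after adjustment. Within batch 1 alone the changes were -0.41 for TET2 and -0.82 for TET3. Without replicate 2 of DMSO at 2 h, TET2 stood at -0.41 (adjusted p = 0.223). On the mitochondrial scale both calls were lost, at 0.0243 for TET2 (adjusted p = 1) and -0.14 for TET3 (adjusted p = 0.882). This contrast shares DMSO libraries with those of toyocamycin, so their values are set side by side and not compared.

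**Figure D4:**
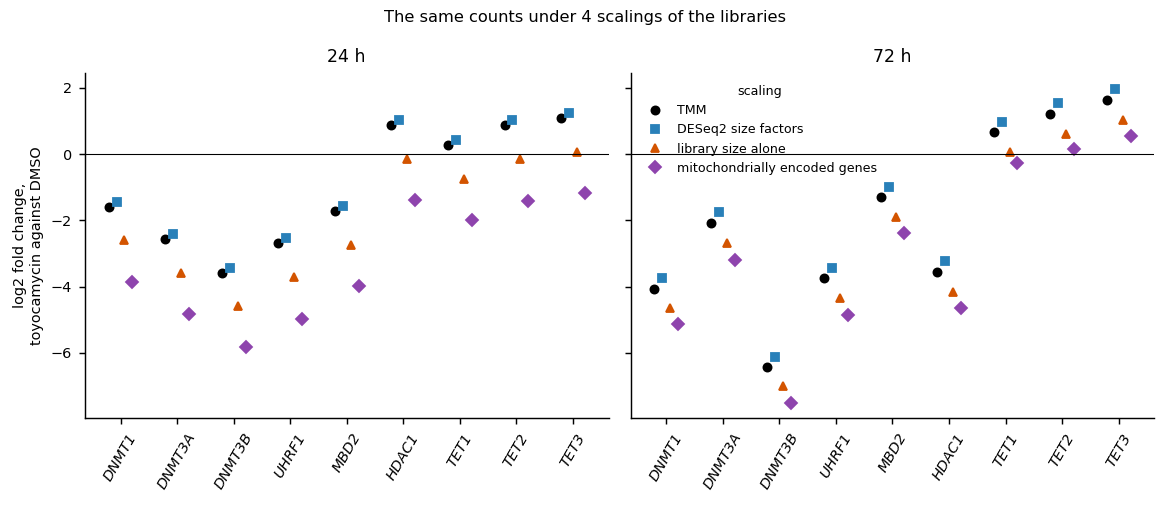
Log2 fold change of toyocamycin against DMSO for each gene at 24 h and at 72 h under 4 scalings of the same counts, by TMM, by the size factors of DESeq2, by library size and by the summed counts of the mitochondrially encoded genes. The 5 genes on the left of each panel lie below 0 under all 4, HDAC1 does so at 72 h, and TET3 is above 0 at 72 h under all 4 but at -1.18 at 24 h on the mitochondrial scale.

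At 72 h the choice of scaling moved the calls of the genes that rose and not those of the 6 that fell. Against TMM, the median of all genes at 72 h moved by 0.32 with DESeq2's size factors, by -0.60 with library size alone and by -1.07 on the mitochondrially encoded genes. The latter genes took 0.917% to 3.47% of reads in DMSO and 1.46% to 6.55% on toyocamycin. Over the 4 scalings DNMT1 ranged from -5.14 to -3.74 at 72 h, DNMT3A from -3.18 to -1.76, DNMT3B from -7.50 to -6.11, UHRF1 from -4.84 to -3.43, MBD2 from -2.39 to -0.98 and HDAC1 from -4.63 to -3.24. All 6 were called under each of these. TET3 ranged from 0.55 to 1.97 and TET2 from 0.15 to 1.55, and on the mitochondrial scale neither was called (adjusted p = 0.247 and 0.753). With library size alone, TET2 and TET3 were again called higher.

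Other genes of the pathway are described from lists chosen with results of these data known. Among partners of the writers and enzymes of the methyl donor, 7 of 10 fell and 2 rose at 72 h. Of all genes, 41.9% were lower and 47.0% higher. The median of this list was -1.46 on the log2 scale. With scaling on the mitochondrially encoded genes, 8 of the list were called lower and only 1 higher, so not both rises held. CDCA7L, a paralog of the chromatin factor CDCA7, went from 112 ± 13.2 to 5.52 ± 1.39 CPM (SD, n = 3; log2 fold change -4.31 ± 0.18, adjusted p = 7.05e-12). AHCY, which clears the by-product of methyl transfer, went from 304 ± 19.6 to 55.6 ± 2.78 CPM, and UHRF2, the paralog of UHRF1, rose from 21.4 ± 4.32 to 40.6 ± 2.57 CPM. DNMT3L, a catalytically inactive partner of the de novo enzymes, had 0 counts in every DMSO library and 2.18 ± 0.280 CPM at 72 h on toyocamycin, at least 47.2-fold higher than 3 counts over the DMSO group allow.

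Most other genes for proteins that bind methylated CpGs went the other way from MBD2. Of 9, 7 rose and 1 fell at 72 h, with a median of 0.96, beside 47.0% higher and 41.9% lower of all genes. MBD5 rose from 5.44 ± 1.86 to 18.3 ± 2.69 CPM (log2 fold change 1.78 ± 0.29, adjusted p = 3.24e-05). MBD4, a glycosylase that repairs mismatches at CpGs, fell from 23.7 ± 2.55 to 5.52 ± 0.648 CPM. On the mitochondrial scale the median of this list was -0.14, with 0 called higher and 2 lower, so its rise depends on the scaling.

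Of 13 genes that act with TET enzymes in demethylation, 7 were higher and 6 lower at 72 h, with a median of 0.25, where 47.0% of all genes were higher and 41.9% lower, so the counts set the list apart in neither direction. GADD45B and GADD45A, stress genes also linked to demethylation, rose from 67.0 ± 7.38 to 13117 ± 724 CPM and from 159 ± 14.5 to 4766 ± 402 CPM. IDH2 and IDH1, whose product is the cofactor of TET enzymes, fell from 148 ± 12.1 to 1.54 ± 0.517 CPM and from 81.0 ± 9.26 to 2.10 ± 0.589 CPM.

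Of 14 further subunits of the NuRD and SIN3 complexes, 11 fell and 3 rose at 72 h, with a median of -1.69. Among all genes, 41.9% were lower and 47.0% higher. RBBP4, a histone chaperone of both complexes, went from 138 ± 12.7 to 14.3 ± 0.993 CPM and MTA3 from 42.0 ± 3.41 to 4.17 ± 1.47 CPM. MTA2 rose from 227 ± 20.4 to 666 ± 27.4 CPM and CHD3 from 39.5 ± 3.96 to 103 ± 11.7 CPM, but on the mitochondrial scale 0 genes of this list were called higher.

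Maintenance methylation is coupled to replication, so S phase genes were set beside them. Of 17 such genes, 16 fell and PCNA rose at 72 h, with a median of -2.26, beside 41.9% lower and 47.0% higher of all genes. With library size alone and on the mitochondrial scale 16 were again lower and 0 higher, so the rise of PCNA was lost. Their summed level was 3363 to 3467 CPM in DMSO and 1109 to 1330 CPM on toyocamycin at 72 h, and 3219 against 1771 to 2093 CPM at 10 h. MCM5 and RRM2, the 2 largest falls of this list, went to 8.80 ± 1.74 and 18.4 ± 2.78 CPM at 72 h, and none of the 17 was at 0. The smallest fall was that of FEN1, with a log2 fold change of -0.71. Epithelial markers summed to 5807 to 6681 CPM in DMSO and to 527 to 560 CPM on toyocamycin at 72 h, a sum carried by KRT8, which fell from 4293 ± 384 to 268 ± 12.2 CPM, and KRT18, which fell from 1215 ± 71.8 to 34.9 ± 3.53 CPM. Of the 7 epithelial markers tested, 5 fell and 2 rose, namely CDX2 from 69.6 ± 12.4 to 104 ± 9.04 CPM and LGALS4 from 0.0308 ± 0.0269 to 3.70 ± 1.46 CPM. With library size alone and on the mitochondrial scale 5 were again lower but only 1 was higher. The 10 markers of other cell types summed to 0.697 to 1.73 CPM in DMSO and 5.41 to 23.5 CPM on toyocamycin. The part of these shifts in the results on the 9 genes was not tested.

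**Figure D5:**
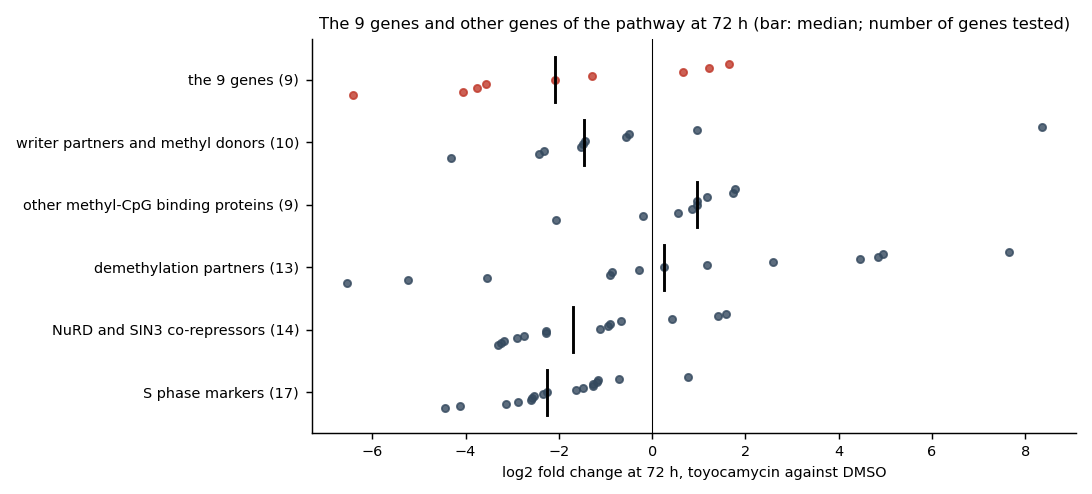
Log2 fold change of toyocamycin against DMSO at 72 h for the 9 genes and for the tested genes of 5 related lists, 1 point per gene, with a bar at the median of each list and the number of genes in brackets. Medians were -2.08 for the 9 genes, -1.46 for writer partners, 0.96 for other methyl-CpG binding proteins, 0.25 for demethylation partners, -1.69 for co-repressors and -2.26 for S phase genes.

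Genes most alike in pattern were sought over all 17 libraries among 8927 genes with a mean log2 CPM of at least 3. DNMT1 was closest to DIAPH1, an actin-organising formin (r = 0.996), and INPPL1 (r = 0.995). DNMT3A was closest to FBH1 and DHX16, UHRF1 to SEMA4B and SLC10A3, MBD2 to SMARCD1 and SNN, and HDAC1 to CHP1 and PRDX3, all with r between 0.981 and 0.993. For DNMT3B, MYBL2 was among the genes most alike (r = 0.986). TET3 was closest to DENND5B (r = 0.964) and ACVR2A (r = 0.953), and TET2 to REL, an NF-kappaB subunit (r = 0.961), and ZNF148 (r = 0.955). No gene came near TET1, whose best was DCTN5 (r = 0.674). Among the 9 genes, DNMT3A and UHRF1 were most alike (r = 0.951), and MBD2 was next to UHRF1 (r = 0.946). DNMT1 was closer to DNMT3B (r = 0.932) and HDAC1 (r = 0.904) than to UHRF1 (r = 0.854), and opposed to TET3 (r = -0.870). These correlations describe 17 libraries that share treatment, time and scaling.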

How the data were processed

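Poly(A) RNA of YB5 cells was sequenced in paired-end mode. Per the labels and the paper's methods, the authors aligned reads to GRCh38 with STAR 2.7.5a, counted reads per gene and deposited the raw counts without normalization. The strand setting is not given in the sources used here. The authors' own table of log2 fold changes and p-values was not used, nor was 1 column of the count table that matches no sample analysed here. Groups, times and batches came from the labels, which describe biological replicates.

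Of 19141 genes, 19080 were matched to a symbol of GENCODE v44, a later annotation of the same build, which also gave positions and lengths. Counts were filtered with filterByExpr, scaled with TMM and tested with edgeR 4.0.16 (legacy quasi-likelihood form, R 4.3.3) with no minimum fold change, and genes were called where the p-value adjusted after Benjamini and Hochberg was under 0.1, as in the paper's methods. A fit of 14 libraries gave 2, 24, 48 and 72 h, the difference between effects, and DMSO over time, and a fit of all 17 gave 10 h. At 24 and 48 h a 2-fold difference was used. Intervals are 95% intervals, and log2 CPM used a prior count of 2. The scripts were tested on simulated counts. Limits for a count of 0 are 3 counts and cover counting error only, since PCR copies cannot be told from separate molecules here. Totals of 8735465 to 22121364 counts set the precision.

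Same-numbered libraries deviated together at 2 h (r = 0.307), where the number is also the batch in the labels. At 72 h, correlations of same-numbered libraries were -0.105, 0.0427 and -0.0876. No replicate pair agreed within sampling noise.

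Every member is named. Of each list, the 2 largest rises and 2 largest falls at 72 h among called genes with a mean of at least 1 CPM are named. Some genes that these rules name are not reported here. The members and lists were chosen with earlier results of these data known. Alternatives were DESeq2 1.42.0 (size factors and Wald test), library size alone, the mitochondrially encoded genes as scale, other filters (none, or at least 10 counts in every library), the edgeR 4 form of the test, an adjusted p under 0.05, batch and replicate terms, other sets of libraries, and each library left out. Promoters came from RefSeq on GRCh38.p14.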

Additional observations from a re-analysis of the deposited data

Results flagged for a closer look

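For all 9 genes the effect of toyocamycin at 72 h differed from that at 2 h in edgeR's quasi-likelihood test of the difference itself, beside 38.1% of all genes lower and 38.0% higher. On the log2 scale the difference was -4.21 for DNMT1, -1.98 for DNMT3A, -5.76 for DNMT3B, -3.44 for UHRF1, -1.47 for MBD2 and -3.89 for HDAC1. It was 1.51 for TET1, 1.94 for TET2 and 2.59 for TET3. The call of TET1 (adjusted p = 0.0695, with an interval from -0.01 to 3.02) was lost in 7 of 10 fits without a library, in the fit of all 17 libraries, with library size alone, on the mitochondrial scale and at an adjusted p under 0.05, and that of TET2 on the mitochondrial scale (adjusted p = 0.285). In TET2 and TET3 the effects at 2 and 72 h were both called in the main fit and had opposite signs. The 2 h call of TET2 was lost in 3 of 4 fits without a library. On the mitochondrial scale neither gene was called at 2 or 72 h. The labels give 2 batches at 2 h and 1 batch at 72 h, and within batch 1 the differences were -4.23 for DNMT1, 1.57 for TET2 and 2.36 for TET3.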

How the results depend on the processing

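Of 830 alternative values of the 9 genes' log2 fold changes, 712 were counted as kept. In tested comparisons these kept direction and side of the threshold. At 24 and 48 h they kept direction and moved by less than the replicate SD. A move that small could still cross 2-fold, as for TET2 at 24 h with DESeq2's size factors (1.02 against 0.87). Another 37 values changed sign. Of these, 8 were at 24 or 48 h in genes not past 2-fold in the main fit. TET3 at 24 h and TET2 at 48 h, which were past 2-fold, also changed sign on the mitochondrial scale. A further 24 values lost and 15 gained the call, and 42 others at 24 and 48 h moved by more than the replicate SD. At 72 h the count of members lower was 6 under every alternative but 1, and 5 with at least 10 counts in every library, a filter that leaves out DNMT3B.

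At 2 h, members lower numbered 4, with 1 higher, under the replicate block, 1 with the 2 h libraries alone, 1 at an adjusted p under 0.05, 0 on the mitochondrial scale, and 1 to 2 with a library left out. The block changed no other call of a member, at 72 h or for the difference between effects. On the mitochondrial scale, members higher numbered 0 at 10, 24, 48 and 72 h and 1 for the difference between effects, members lower numbered 9 at 24 h, and members lower in DMSO over time numbered 0. At 24 h, 3 members were higher with DESeq2's size factors and 0 with library size alone, which left 1 higher at 48 h. In DMSO over time, 2 were higher with DESeq2's size factors and in its Wald test, 0 to 1 were higher and 1 to 2 lower with a library left out.

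Many but not all values that changed sign lay near 0. On the mitochondrial scale these were DNMT1 at 2 h (-0.0168), TET1 (-1.28) and TET2 (-0.95) at 10 h, TET3 (-1.18), TET1 (-1.99), TET2 (-1.40) and HDAC1 (-1.39) at 24 h, TET2 (-0.52) and TET1 (-1.23) at 48 h, TET1 at 72 h (-0.26), and in DMSO over time DNMT3B (0.49), TET2 (0.0243), MBD2 (0.44) and HDAC1 (0.61). With library size alone they were TET1 (-0.35) and TET2 (-0.27) at 10 h, TET1 (-0.74), TET2 (-0.14) and HDAC1 (-0.14) at 24 h, TET1 at 48 h (-0.00831), and UHRF1 (-0.14) and TET1 (-0.14) in DMSO. At 10 h DNMT1 was 0.12 with DESeq2's size factors and in its Wald test and 0.0509 with at least 10 counts in every library, and TET1 was -0.10 in the edgeR 4 form. In DMSO, UHRF1 was -0.34 with batch as a term and -0.00195 with at least 10 counts, and TET1 was -0.00536 with the latter. With a library left out, DNMT3A ranged from -0.21 to 0.0120 and UHRF1 from -0.64 to 0.10 at 2 h, TET1 from -1.20 to 0.74 at 10 h, and in DMSO DNMT3B from -0.29 to 0.0699, UHRF1 from -0.30 to 0.43 and TET1 from -0.42 to 0.27. The cause was not tested.

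Depth limits TET1 (10 to 55 counts) and DNMT3B on toyocamycin at 72 h (0 to 5 counts). At 24 and 48 h there is 1 library per arm.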

Other observations

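Of 22 germline genes that DNA methylation keeps silent in somatic cells and that have a row in the table, few reads were counted in any library but 1. The sum over all 22 was 1 to 12 counts per DMSO library, and 28, 43 and 41 counts on toyocamycin at 72 h, or 2.75 to 3.98 CPM against 0.0496 to 0.506 CPM in the 8 DMSO libraries. Between 7 and 9 of the 22 genes were detected in these treated libraries and 1 to 5 in DMSO at 72 h. Most of the treated sum at 72 h came from MOV10L1, SYCE1 and STK31, with means of 1.26, 0.693 and 0.679 CPM. MAEL followed at 0.247 CPM, and every other gene of the 22 was lower. Replicate 2 of toyocamycin at 10 h held 190 counts of 21 of these genes, where replicate 1 held 8 counts of 5 genes. That library also detected 9 of 10 markers of other cell types, summing to 30.5 CPM. The detected number of genes of any kind was 16273 to 16549 on toyocamycin at 72 h and 13591 to 13790 in DMSO.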
